A study of Mus musculus with 43 samples.

Results

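Depp1 and 9 genes induced by glucocorticoids, by FOXO transcription factors or by fasting (Fkbp5, Sgk1, Tsc22d3, Ddit4, Cdkn1a, Zbtb16, Hif3a, Plin4 and Pdk4) were followed through brain RNA-seq of 2 mouse models of Alzheimer's disease given an NRF2 inducer. The question was whether Depp1, which was higher in treated AppNLGF brain, moved together with a steroid or fasting response. Depp1 was selected on its measured TPM difference between treated and vehicle AppNLGF libraries, so the values of that contrast are a description without a test. The other 9 genes were selected as known targets, with earlier results of these data known. All 10 were found by Ensembl identifier among the 55804 gene rows of each of the 2 tables, and all 10 reached the mean of 1 TPM needed to enter the fits in both. In the AppNLGF table Depp1 reached it only through the treated libraries. Its mean was 2.12 TPM in treated, 0.639 TPM in vehicle and 0.426 TPM in wild-type libraries. TPM is the authors' unit of abundance, divided by transcript length and scaled to a fixed total per library, and it keeps no record of read depth.

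The drug was CDDO-2P-Im (2P-Im below), a synthetic oleanane triterpenoid, dosed orally at 30 µmol/kg on 3 occasions a week. AppNLGF mice (AppNL-G-F/NL-G-F) are homozygous for a knock-in of familial disease mutations in their own App gene. At 6 months of age they provided 13 libraries after 4 weeks of 2P-Im and 11 after vehicle, a mixture of DMSO, Cremophor EL and PBS, beside 4 libraries of vehicle-treated wild-type mice of that age. APP/TAU mice carry the mutant human transgenes APPV717I and TAUP301L, whose promoters the labels do not give. At 11 months of age they provided 5 libraries after 2 weeks of 2P-Im and 5 after vehicle, beside 5 libraries of vehicle-treated wild-type mice of that age. The design text states the dosing schedule for the model mice alone. Libraries of a group are numbered as replicates in the labels, which do not say whether each came from its own animal. The p-values therefore reflect library-to-library spread, which may be technical.

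Glucocorticoids enter brain cells and bind the glucocorticoid receptor, which moves to the nucleus, binds DNA at paired short motifs and switches on genes that include its own brake, Fkbp5. FOXO factors are kept out of the nucleus by insulin and AKT signalling. They enter it when insulin falls, as in fasting, and then switch on genes of fuel use, autophagy and growth arrest. Depp1 encodes a small protein that regulates autophagy, is a direct FOXO target in human cells, and takes its name from its induction by progesterone in decidua. In mouse tissues it is also known as a gene induced by fasting. Several of the 9 companion genes answer to both systems.

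The sequences upstream of 2 members are printed below with any matches to motifs of the known regulators. The stretch before Depp1 (GRCm38, chr6:116650434-116650608, plus strand) lies just upstream of the annotated gene and runs from 250 to 76 bases before its RefSeq start. The window of Sgk1 (GRCm38, chr10:21993640-21993889, plus strand) is that of a start site inside the gene's annotated span, and it held a full glucocorticoid response element, a palindrome of 2 receptor motifs. Both are from RefSeq, on GRCm38.p6, and the capitals mark every match to the 6 motifs searched on both strands, which overlap each other in part.
Depp1: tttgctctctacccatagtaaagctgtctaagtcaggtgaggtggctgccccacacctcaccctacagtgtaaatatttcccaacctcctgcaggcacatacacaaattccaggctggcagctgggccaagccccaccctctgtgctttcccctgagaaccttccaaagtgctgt
Sgk1: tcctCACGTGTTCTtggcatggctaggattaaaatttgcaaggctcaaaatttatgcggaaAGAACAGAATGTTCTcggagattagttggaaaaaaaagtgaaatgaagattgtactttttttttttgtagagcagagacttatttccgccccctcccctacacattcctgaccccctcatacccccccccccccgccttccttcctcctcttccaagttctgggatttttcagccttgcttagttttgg
In the Sgk1 window the full element lay at positions -189 to -175 from the start. A single receptor motif (AGAACA, read here on the other strand) at -242 to -237 overlapped an E-box, the clock and MYC element CACGTG, at -246 to -241. Among all 32851 RefSeq windows of 250 bases, 3 held the full element (0.00913%), 16.1% a single receptor motif and 6.02% an E-box. The Depp1 stretch held none of the 6 motifs, which besides these 3 were a FOXO element (GTAAACA, in 3.17% of all windows), the core of the antioxidant response element that NRF2 binds (TGACNNNGC, in 10.2%) and a cAMP response element (TGACGTCA, in 1.55%). RefSeq windows were found for 9 of the 10 genes, 17 windows in all, and Zbtb16 had none. No member window held the FOXO, antioxidant or cAMP element. Beside Sgk1, Fkbp5 had an E-box at -169 to -164 and Tsc22d3 a single receptor motif at -185 to -180. Only the letters given were searched, so variant forms of an element, FOXO elements included, were not counted. A match is a run of letters and not a measured binding site, and nothing about a factor follows from its absence in these short windows.

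In AppNLGF brain Depp1 was the member that stood apart. Its level was 0.91, 2.08 and 3.75 TPM at the lowest, median and highest of the 13 2P-Im libraries, against 0.257, 0.655 and 0.986 TPM in the 11 vehicle libraries and 0.0857, 0.305, 1.05 and 0.264 TPM in the 4 wild-type libraries. The mean was 2.12 ± 0.842 TPM with 2P-Im, 0.639 ± 0.260 TPM with vehicle and 0.426 ± 0.426 TPM in wild type (SD, n = 13, 11 and 4). The treated and vehicle ranges touched at the edge alone: 11 of the 13 treated libraries lay above every vehicle library, and the other two, treated replicates 4 and 7, lay at 0.944 and 0.912 TPM. The order of the groups was 2P-Im, vehicle, wild type, and the vehicle and wild-type groups overlapped, since wild-type replicate 3 lay above all 11 vehicle libraries. Depp1 (ENSMUSG00000048489, chromosome 6, 116650609 to 116652794, plus strand, GENCODE M21 on GRCm38) is thus a gene of low level in this tissue.

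The fold change of Depp1, 2P-Im over vehicle, was 0.90 ± 0.14 on the scale of log2(TPM + 1) (SE, 95% interval 0.61 to 1.18), which placed it 59th from the top of 16776 genes. After scaling each library by its median ratio to the average library, called median-ratio scaling below, it was 0.92 ± 0.14. The added 1 shrinks the change of so low a gene: with a pseudocount of 0.1 the same fold change was 1.58 ± 0.27. In that contrast Depp1 and no other member was among the genes called at an adjusted p below 0.05 (limma, Benjamini-Hochberg over all genes), where 0.0536% of all genes were called on deposited TPM and 0.286% after median-ratio scaling. Because the contrast chose Depp1, nothing is read from that count or from the rank.

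Companion genes of the glucocorticoid response had nearly the same levels with and without 2P-Im in AppNLGF brain. Fkbp5, the co-chaperone that lowers the receptor's affinity for hormone, had 9.36, 15.8 and 28.0 TPM at the lowest, median and highest treated library, against 12.2, 15.5 and 29.6 TPM in vehicle and 8.06 to 16.4 TPM in wild type. Its fold change, 2P-Im over vehicle, was -0.11 ± 0.16. Sgk1, a kinase of ion transport that is activated beside AKT, had 29.5, 62.1 and 76.7 TPM in treated libraries, against 42.7, 55.0 and 86.8 TPM in vehicle and 39.5 to 92.3 TPM in wild type. Its fold change was -0.02 ± 0.14, or 0.03 ± 0.16 after median-ratio scaling, although 1 of its windows holds the full response element printed above. For both genes the treated range covered most of the vehicle range.

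Tsc22d3, which encodes the anti-inflammatory leucine zipper GILZ, averaged 36.7 ± 11.2 TPM with 2P-Im, 40.5 ± 7.89 TPM with vehicle and 35.9 ± 9.71 TPM in wild type (SD, n = 13, 11 and 4, as for all means of this paragraph). Zbtb16, a transcriptional repressor and a classical steroid-induced gene, averaged 27.9 ± 7.42, 31.2 ± 6.18 and 26.1 ± 8.13 TPM in the same 3 groups. Both had a fold change of -0.17 in 2P-Im over vehicle (SE 0.15). Hif3a encodes a hypoxia-inducible factor subunit that can restrain the others. It averaged 3.38 ± 1.29 TPM with 2P-Im, 4.15 ± 0.695 TPM with vehicle and 2.94 ± 0.772 TPM in wild type. Its fold change was -0.28 ± 0.14 in 2P-Im over vehicle (95% interval -0.56 to -0.003, not adjusted for the number of genes). Plin4, a lipid droplet coat protein, ranged widely, with 1.70, 4.36 and 12.9 TPM at the lowest, median and highest treated library, against 2.96, 5.56 and 15.5 TPM in vehicle. Its fold change was -0.29 ± 0.28. These 4 differences in level all ran opposite to that of Depp1, and in each the groups overlapped.

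Of the members tied to FOXO, fasting and stress, Ddit4 leaned the same way as Depp1. Ddit4 encodes REDD1, an inhibitor of mTORC1 that glucocorticoids, hypoxia and energy stress induce. It had 12.9, 24.5 and 34.4 TPM at the lowest, median and highest treated library, against 12.8, 17.3 and 29.4 TPM in vehicle and 20.1 to 24.9 TPM in wild type. Its fold change was 0.35 ± 0.12 (95% interval 0.09 to 0.60), or 0.39 ± 0.15 after median-ratio scaling, but 1 treated library alone lay above every vehicle library. The interval is not adjusted for the number of genes, and Ddit4 was not called by either scaling. Pdk4, the kinase that shuts off pyruvate dehydrogenase in fasting, averaged 3.47 ± 0.745 TPM with 2P-Im, 3.15 ± 0.530 TPM with vehicle and 3.69 ± 0.826 TPM in wild type, with a fold change of 0.10 ± 0.09. Cdkn1a, which encodes the cell cycle inhibitor p21 and answers to p53, FOXO and the receptor, averaged 12.8 ± 5.03, 13.0 ± 5.03 and 11.5 ± 3.40 TPM, with a fold change of -0.03 ± 0.18. The median fold change of the 9 companions was -0.11, or -0.07 after median-ratio scaling, where that of all 16776 genes was -0.04 and 0.00. The sign was negative for 7 of the 10 genes on deposited TPM and for 5 of 10 after median-ratio scaling.

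**Figure D1:**
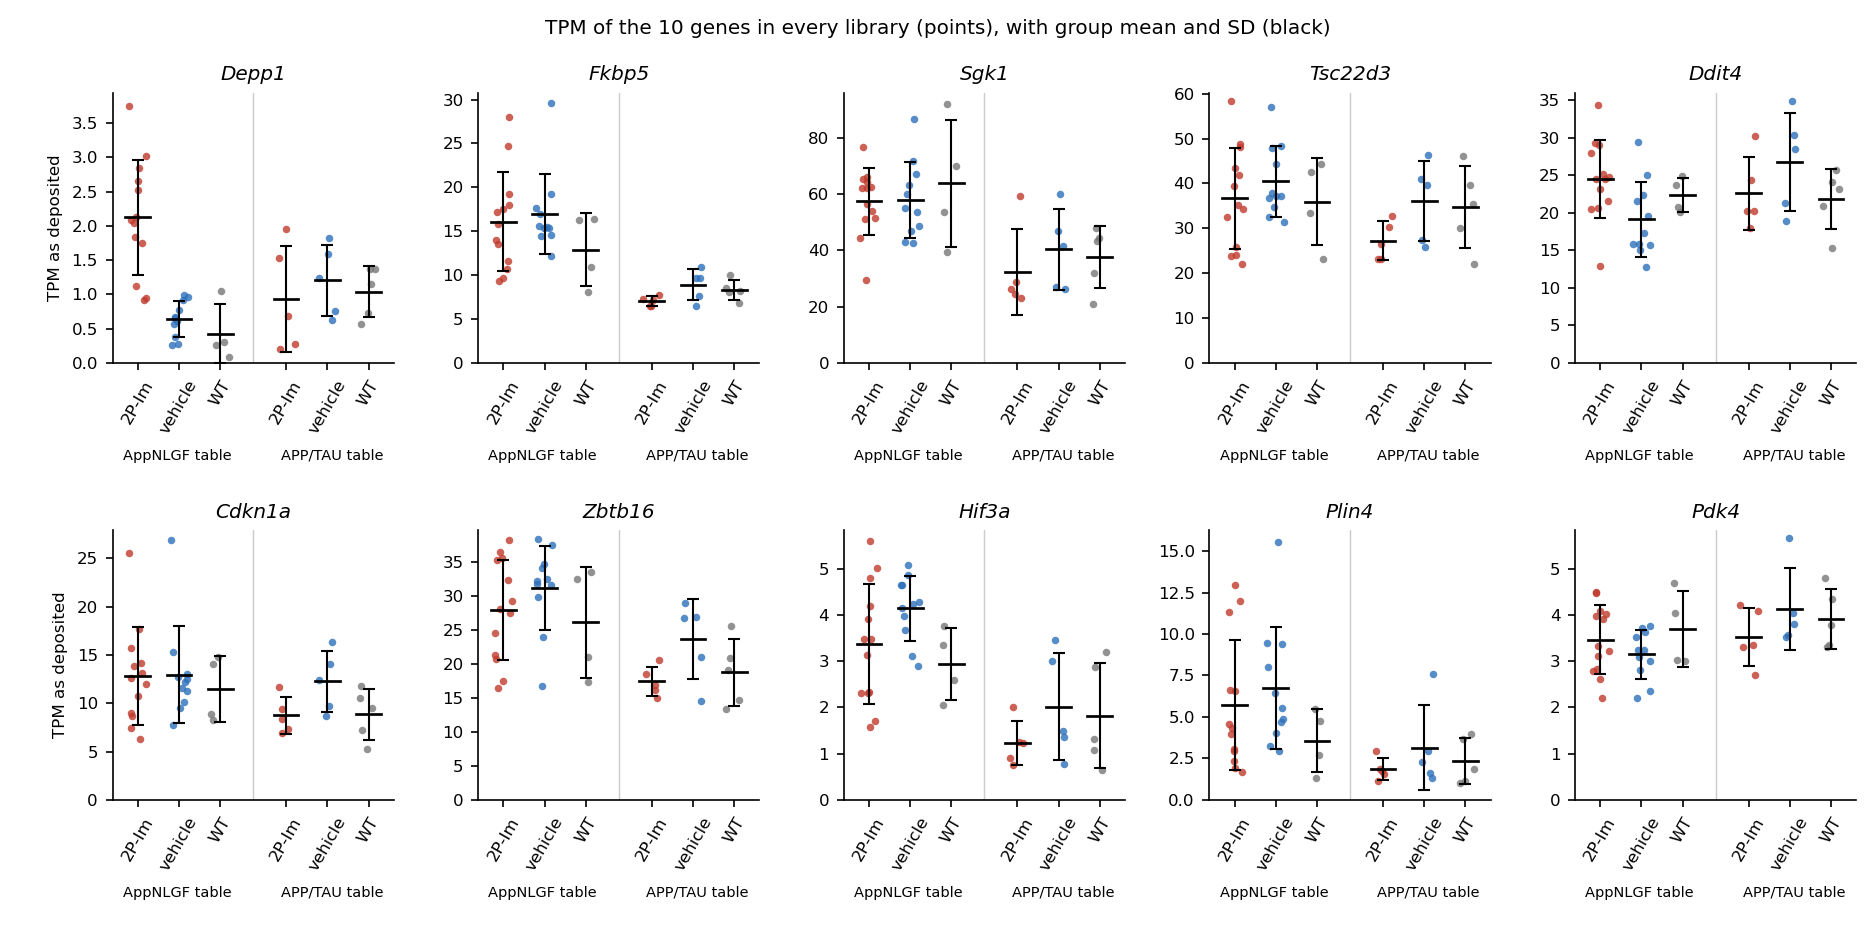
TPM of each of the 10 genes (vertical axes, linear) in every library, in 6 groups along the horizontal axis; points are libraries and bars the group means with SD. In the AppNLGF table Depp1 had 11 of 13 treated libraries above all vehicle libraries, while for the other 9 genes the treated and vehicle points overlap more. The next largest counts were 6 of 13 treated libraries above all vehicle libraries for Pdk4 and 5 of 13 below all of them for Hif3a.

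The AppNLGF libraries were also split by replicate number and by Xist, the RNA of the inactive X chromosome. Depp1 was chosen on these same libraries, so its values in the subsets are a description. Among replicate numbers 1 to 5 Depp1 averaged 2.15 ± 0.79 TPM with 2P-Im (SD, n = 5) and 0.557 ± 0.30 TPM with vehicle (n = 5), and among numbers of 6 and above 2.11 ± 0.93 TPM (n = 8) and 0.708 ± 0.22 TPM (n = 6). The labels do not say that these numbers mark a batch. Xist lay above 10 TPM in 7 of the 13 treated, 5 of the 11 vehicle and 0 of the 4 wild-type libraries. Where it lay above 10 TPM, Depp1 averaged 1.64 ± 0.641 TPM with 2P-Im (n = 7) and 0.530 ± 0.287 TPM with vehicle (n = 5). Elsewhere it averaged 2.69 ± 0.702 TPM with 2P-Im and 0.730 ± 0.217 TPM with vehicle (n = 6 each). The difference of mean log2(TPM + 1), 2P-Im minus vehicle, was 0.77 above 10 TPM and 1.08 at or below. For Ddit4 it was 0.05 above 10 TPM and 0.65 at or below, and 0.11 and 0.53 in the lower and higher replicate numbers. All of these differences were positive, and whether they differ between subsets was not tested.

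Treated AppNLGF libraries 1 and 2 need a caution. In both, the plaque-associated microglial genes Cst7, Clec7a and Itgax lay below every AppNLGF vehicle library, with Cst7 at 4.94 and 3.78 TPM against a vehicle minimum of 7.93 TPM and at most 0.370 TPM in wild type. Without these 2 libraries the fold change of Depp1, 2P-Im over vehicle, was 0.83 ± 0.15, and that of Ddit4 0.29. Leaving out any 1 of the 28 libraries gave 0.84 to 0.95 for Depp1 and 0.30 to 0.42 for Ddit4. The tissue label is brain with no region, and the 2 tables differ in region markers: the striatal gene Ppp1r1b averaged 156 to 185 TPM in the groups of the AppNLGF table and 34.0 to 40.8 TPM in those of the APP/TAU table, while the Purkinje cell gene Pcp2 averaged 0.195 to 0.283 TPM in the first and 156 to 170 TPM in the second. The tables were also normalized separately, so levels and effects are set side by side between them without a test.

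None of the 10 genes passed between vehicle-treated AppNLGF brain and wild type (limma, adjusted p = 1 for all 10 genes on deposited TPM, at least 0.734 after median-ratio scaling). At an unadjusted p below 0.05, 698 genes stood out on deposited TPM, and 0.28% of genes were called after adjustment (0.691% after median-ratio scaling). The contrast shares its vehicle libraries with the one above. Depp1 entered the fit through its treated libraries, and its mean lay below 1 TPM in both groups compared here. Plin4 had the largest fold change, vehicle over wild type, at 0.74 ± 0.40, followed by Hif3a and Fkbp5 at 0.39 each (SE 0.19 and 0.23), and Depp1 had 0.23 ± 0.20. Ddit4, Pdk4 and Sgk1 were negative, at -0.25, -0.17 and -0.10. The largest of these rest on 4 wild-type libraries that ranged widely: wild-type replicate 3 was the highest of the group for 6 of the 9 companions and replicate 1 the lowest for 7.

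Against wild type, 2P-Im-treated AppNLGF brain had a Depp1 fold change of 1.12 ± 0.20, and 11 of the 13 treated libraries lay above all 4 wild-type libraries. Depp1 was again the 1 member called, on a background of 0.262% of genes (0.715% after median-ratio scaling). This contrast uses the treated libraries that chose Depp1 and is given without a test.

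APP/TAU libraries had no part in choosing Depp1 and could test it. There its mean was lower with 2P-Im than with vehicle, by less than the spread between libraries. Its level was 0.204, 0.276, 1.95, 1.53 and 0.680 TPM in the 5 treated libraries, against 0.623, 1.82, 0.752, 1.24 and 1.59 TPM with vehicle and 0.725, 0.560, 1.15, 1.37 and 1.37 TPM in wild type. The means were 0.927 ± 0.777 TPM with 2P-Im, 1.20 ± 0.517 TPM with vehicle and 1.03 ± 0.373 TPM in wild type (SD, n = 5 each). The treated libraries held both the lowest and the highest value of the table, and no 2 neighbours in the order of the groups differed beyond their spread. The fold change, 2P-Im over vehicle, was -0.25 ± 0.25 (limma, adjusted p = 0.468), with a 95% interval of -0.79 to 0.29. After median-ratio scaling it was -0.14 ± 0.25 (adjusted p = 0.905), with an interval of -0.68 to 0.40. Both intervals lie below the 0.90 of the AppNLGF table, a value that was itself chosen for its size, but the difference between the cohorts was not tested, and the cohorts differ in age, length of treatment and region markers as well as in genotype.

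None of the 10 genes passed in APP/TAU brain between 2P-Im and vehicle, where limma called 0% of 17592 genes on deposited TPM (4719 genes at an unadjusted p below 0.05) and 0.0114% after median-ratio scaling. All 10 fold changes were negative on deposited TPM, with a median of -0.35. The median of all genes was itself -0.19 there and 0.00 after median-ratio scaling, by which 9 of the 10 stayed negative with a median of -0.15. The most abundant RNA of the tables (ENSMUSG00000118866, with no symbol) took 29.5 ± 1.5% of TPM in treated, 22.0 ± 6.6% in vehicle and 30.1 ± 3.7% in wild-type APP/TAU libraries (SD, n = 5 each), and its part in the shift of all genes was not tested.

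Fkbp5 had the smallest adjusted p of the 10 on deposited TPM in APP/TAU 2P-Im over vehicle. It had 6.48, 7.77, 6.51, 7.12 and 7.26 TPM in the treated libraries, against 9.66, 10.9, 7.63, 9.60 and 6.52 TPM with vehicle and 6.78 to 10.0 TPM in wild type. Treated libraries were thus low and close together, and vehicle libraries reached down into their range. The fold change was -0.28 ± 0.12 (limma, adjusted p = 0.171), but -0.08 after median-ratio scaling (adjusted p = 0.814), where Cdkn1a had the smallest at 0.725. On deposited TPM Cdkn1a had the most negative fold change, at -0.43 ± 0.20 (adjusted p = 0.183), with 7.37, 8.40, 6.92, 9.37 and 11.7 TPM in treated libraries against 16.4, 14.1, 9.71, 12.4 and 8.72 TPM with vehicle, and -0.22 after median-ratio scaling, by which Plin4 and Hif3a lay lower, at -0.24 and -0.23. Ddit4 had 17.9, 20.3, 20.2, 24.3 and 30.2 TPM with 2P-Im, against 30.3, 34.8, 18.9, 28.4 and 21.3 TPM with vehicle, a fold change of -0.22 ± 0.18, or -0.01 after median-ratio scaling. The remaining 6 companions lay between -0.40 (Plin4) and -0.17 (Pdk4) on deposited TPM, with adjusted p from 0.187 to 0.398.

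Vehicle-treated APP/TAU brain against wild type gave positive fold changes for all 10 genes on deposited TPM, where the median of all genes was 0.18, and for 5 of 10 after median-ratio scaling. None was called (limma), on a background of 0.0227% of genes, or 0.0284% after median-ratio scaling, with 4186 genes at an unadjusted p below 0.05 on deposited TPM. Cdkn1a had the largest, 0.44 ± 0.20 (adjusted p = 0.201), and Depp1 had 0.10 ± 0.25 (adjusted p = 0.785). Treated APP/TAU brain against wild type had 8 of 10 negative fold changes, with Depp1 at -0.15 ± 0.25 (limma, adjusted p = 1), and again none called, on a background of 0.0227% of genes with 380 genes at an unadjusted p below 0.05. These 3 contrasts share libraries.

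**Figure D2:**
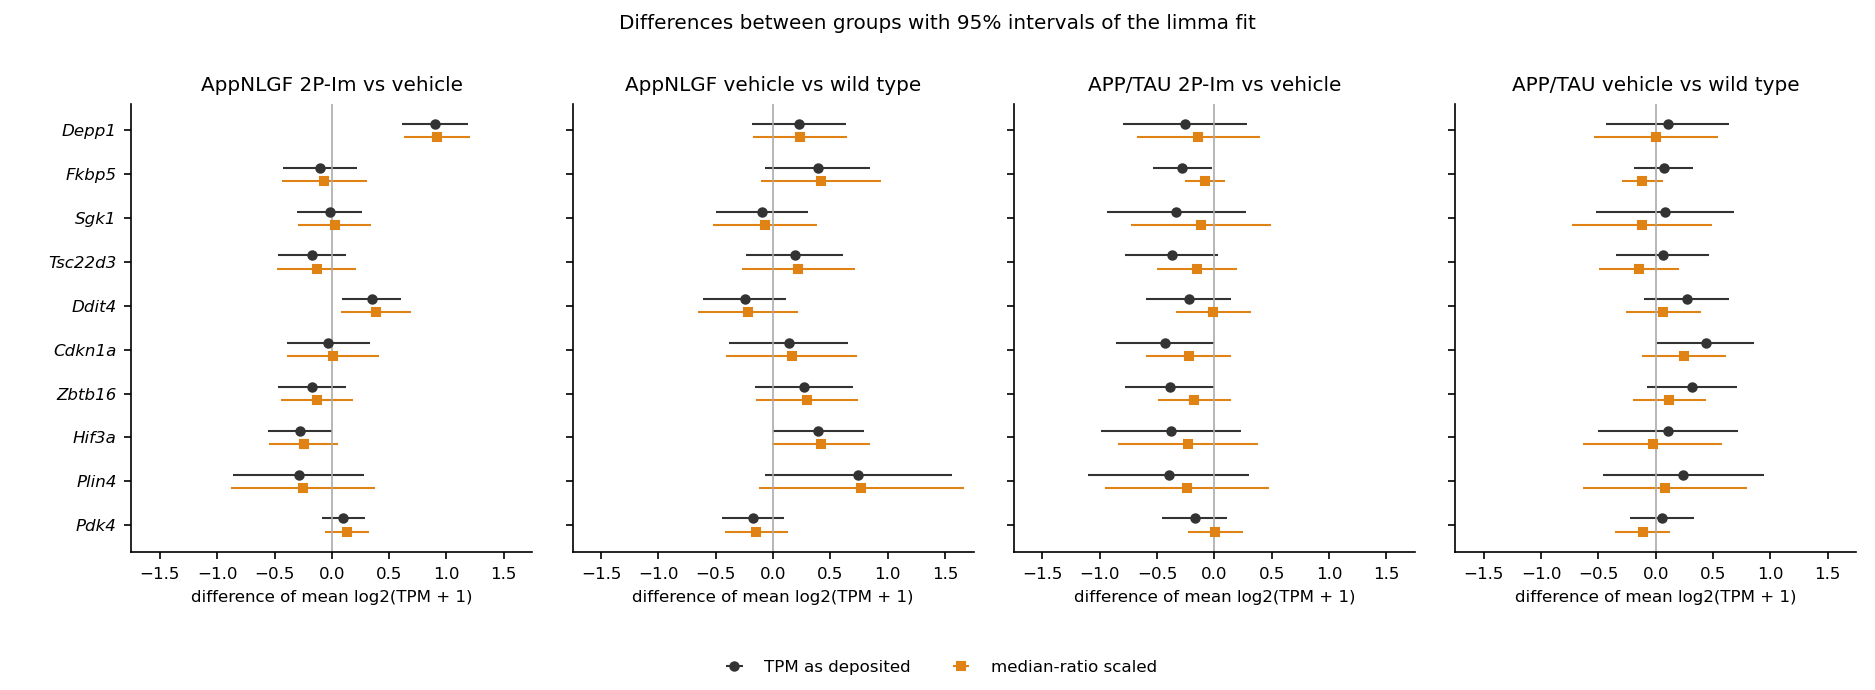
Log2 fold change of the 10 genes in 4 comparisons (horizontal axes, log2(TPM + 1) scale) on deposited and median-ratio scaled TPM, with 95% intervals of the limma fit. Depp1 lies at 0.90 in AppNLGF 2P-Im over vehicle and at -0.25 in APP/TAU 2P-Im over vehicle on deposited TPM, and the 9 companions lie between -0.29 and 0.35 in the AppNLGF panel.

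Within groups, the 9 companions rose and fell together from library to library. Correlations were taken over deviations from the group means of log2(TPM + 1) after median-ratio scaling, with p from 100000 permutations within groups, adjusted over the 72 pairs of both tables. In the 28 libraries of the AppNLGF table all 36 pairs among the 9 were positive, with a median Pearson r of 0.747 (0.369 to 0.958), and 35 of 36 had an adjusted permutation p below 0.05 (33 by Spearman's rho). The strongest were Tsc22d3 with Plin4 (r = 0.958, rho = 0.963) and Fkbp5 with Tsc22d3 (r = 0.938, rho = 0.930), both with a permutation p of 1e-05, the smallest that the permutations can give. Leaving out the 2 libraries farthest from the median in the first gene of each pair lowered the median r to 0.694. It was 0.878 within replicate numbers 1 to 5 and 0.655 within those of 6 and above, 14 libraries each. All 4 wild-type libraries were in the lower range. In the 15 APP/TAU libraries the median r was 0.613 (0.175 to 0.913), 20 of 36 pairs passed by each measure, and the median without the 2 farthest libraries was 0.534. All of these genes share the libraries and the scaling. The share of pairs so correlated among all genes was not computed, so these counts have no background beside them.

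Single libraries show the joint swings. Vehicle replicate 1 was the highest of the 11 AppNLGF vehicle libraries for 8 of the 9 companions and for Depp1. Treated replicate 2 was the highest of 13 for 7 of the 9, and treated replicate 1 the lowest for 5. In APP/TAU brain treated replicate 5 was the highest for 7 of the 9. The labels give neither the time of day at collection nor the handling of the mice, whose part in these swings was not tested.

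**Figure D3:**
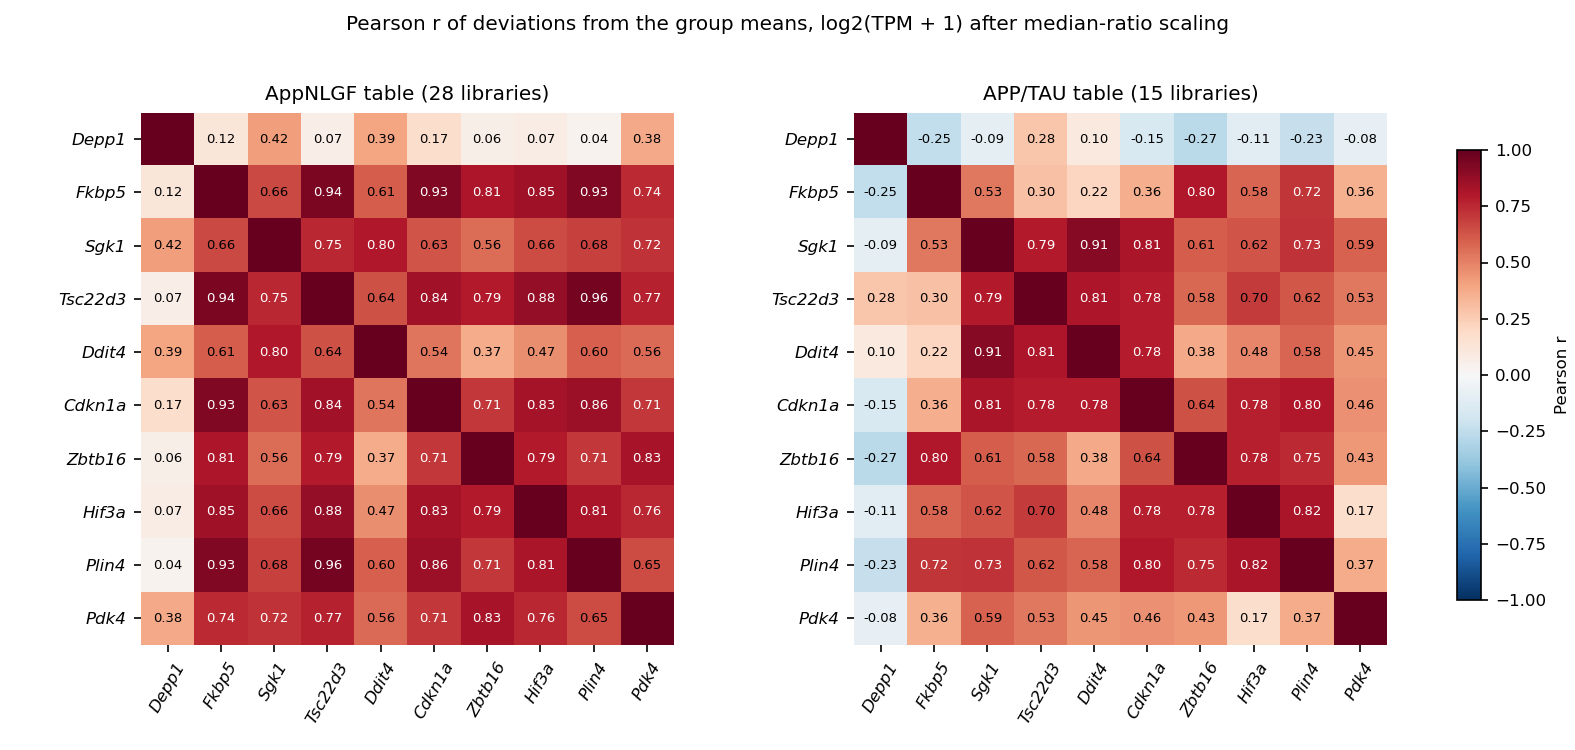
Pearson r between each pair of the 10 genes over deviations from group means (colour scale), for the 28 libraries of the AppNLGF table and the 15 of the APP/TAU table. The 9 companions form a block with a median r of 0.747 and 0.613, and the Depp1 row stays paler, at 0.036 to 0.418 in the AppNLGF table and -0.267 to 0.278 in the APP/TAU table. Depp1 also has the lowest level of the 10 genes, and the part of this in its paler row was not tested.

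The correlations of Depp1 with these 9 genes were lower. Depp1 also had the lowest level, at a mean of 0.639 TPM in AppNLGF vehicle libraries against 3.15 (Pdk4) to 58.1 TPM (Sgk1). The added 1 shrinks the differences of so low a gene, and the part of low level in its lower r was not tested. Over the 28 AppNLGF libraries the r of Depp1 with the 9 companions was 0.036 (Plin4) to 0.418 (Sgk1). With a pseudocount of 0.1 it was 0.098 (Plin4) to 0.438 (Sgk1). For Sgk1, rho was 0.265, the permutation p of r was 0.0338 and the p adjusted over 18 relations was 0.36, the smallest of the 18. Its r with Depp1 was 0.234 without the 2 libraries farthest from the median in Sgk1, and 0.392 without the 2 farthest in Depp1. For Ddit4, r was 0.391 and rho 0.188 (permutation p = 0.04, adjusted 0.36), and r was 0.209 and 0.334 in the same 2 ways. Over the 9 companions the median r was 0.122, and 0.251 without the 2 libraries farthest in Depp1. Without the 2 farthest in each companion, r ran from -0.238 (Plin4) to 0.241 (Pdk4). Pdk4 had r = 0.381 and rho = 0.327 (permutation p = 0.0672, adjusted 0.403). In the 15 APP/TAU libraries r ran from -0.267 (Zbtb16) to 0.278 (Tsc22d3), with permutation p of 0.268 and above. The pooled values hide a split by replicate number. Within numbers 1 to 5 (14 libraries) r with the 9 companions was 0.264 to 0.818, with Sgk1 at 0.818 and Ddit4 at 0.740, and within numbers of 6 and above (14 libraries) it was -0.598 to -0.038. The sign thus turned for all 9 genes between the 2 ranges of numbers, and the difference between the ranges was not tested. The ranges also differ in make-up. Numbers 1 to 5 held 5 treated, 5 vehicle and all 4 wild-type libraries, with treated libraries 1 and 2 among them. Numbers of 6 and above held 8 treated and 6 vehicle libraries and no wild type.

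**Figure D4:**
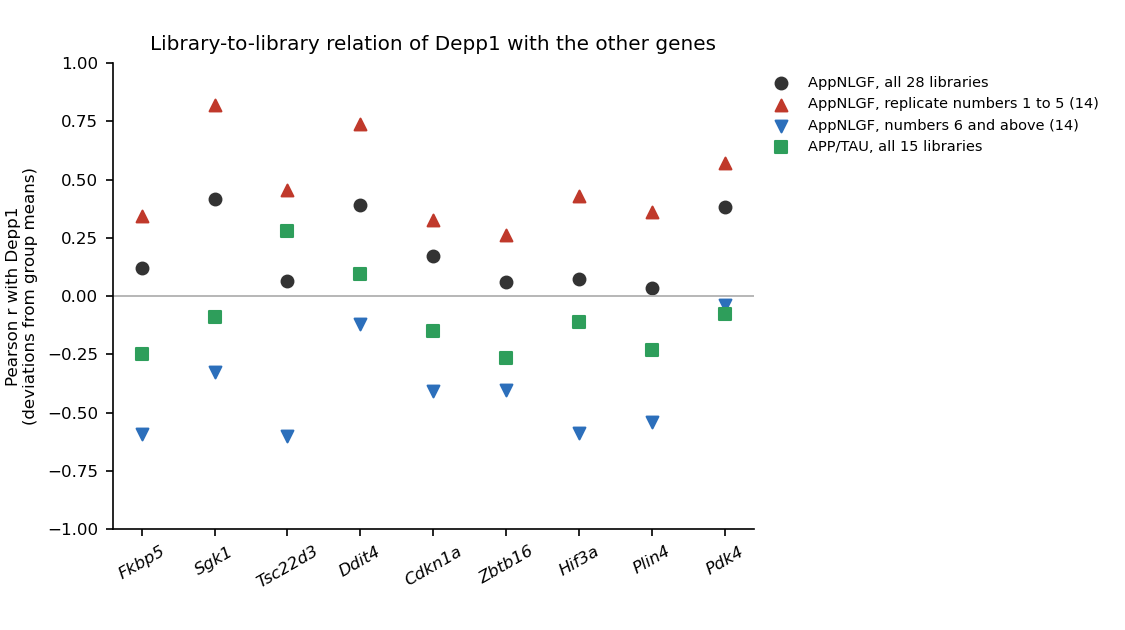
Pearson r of Depp1 with each of the other 9 genes (vertical axis, over deviations from group means) in all 28 AppNLGF libraries, in those numbered 1 to 5, in those numbered 6 and above, and in the 15 APP/TAU libraries. Every gene is positive in numbers 1 to 5, which include all 4 wild-type libraries, and negative in numbers of 6 and above, which include none.

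Genes that followed Depp1 most closely from library to library differed between the tables. In the AppNLGF table the 5 highest of 12485 genes were Arrdc3, an arrestin-like protein, at r = 0.674, Atp8b2 at 0.668, Trub2 at 0.657, Rbm26 at 0.631 and Lnx2 at 0.624. Their r in the APP/TAU table was -0.09, -0.05, 0.144, 0.202 and 0.051 in that order. In the APP/TAU table Arf6, a small GTPase of membrane traffic, led 12911 genes at 0.878, before Pard3b at 0.811, Gon7 at 0.804, Xkr8 at 0.777 and Cul3 at 0.769, and these had r of -0.08, -0.16, -0.397, 0.123 and 0.038 in the AppNLGF table. Sgk1, Ddit4 and Pdk4 were at ranks 245, 329 and 385 in the AppNLGF table. These ranks come from the same libraries and are a description with no p.

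Other genes of the same pathways were taken from lists of 15 to 24 genes. The lists were chosen with earlier results of these data known, which the p-values of their genes do not account for. Of 21 tested genes induced by glucocorticoids besides the members, none was called in AppNLGF 2P-Im over vehicle on deposited TPM, where 7 fold changes were positive and 14 negative, with a median of -0.09. After median-ratio scaling 2 of the 21 were called higher and none lower, with a median of -0.05. Among all genes 0.0536% were called in this contrast on deposited TPM and 0.286% after median-ratio scaling. Per1, a clock gene with glucocorticoid response elements, averaged 36.9 ± 6.0 TPM with 2P-Im and 27.9 ± 3.1 TPM with vehicle, and its fold change was 0.42 ± 0.07 after scaling (limma, adjusted p = 0.00138) and 0.38 ± 0.08 on deposited TPM (adjusted p = 0.0652). Dusp1, a phosphatase of MAP kinases that is also an early gene of neuronal activity, averaged 14.1 ± 5.2 TPM with 2P-Im and 7.32 ± 1.81 TPM with vehicle, at 0.84 ± 0.16 after scaling (adjusted p = 0.0107) and 0.81 ± 0.17 on deposited TPM (adjusted p = 0.0604). Klf9, Errfi1, Mt1 and Mt2, other genes of the response, had -0.08 ± 0.06, -0.05 ± 0.08, 0.00 ± 0.08 and -0.09 ± 0.12 after scaling.

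Per1 and Dusp1 had the opposite sign between vehicle-treated AppNLGF brain and wild type, a contrast that shares the vehicle libraries. There Dusp1 fell by 1.27 ± 0.24 on the log2 scale (limma, adjusted p = 0.00624 on deposited TPM) and Per1 by 0.54 ± 0.09 after median-ratio scaling (adjusted p = 0.00153). In APP/TAU 2P-Im over vehicle neither passed after median-ratio scaling, at -0.32 ± 0.14 for Per1 (adjusted p = 0.547) and -0.24 ± 0.11 for Dusp1 (adjusted p = 0.555). Of 15 clock genes, Nr1d1, a repressor in the clock, was called beside Per1 in AppNLGF 2P-Im over vehicle after median-ratio scaling, at 0.22 ± 0.05 (limma, adjusted p = 0.0235). The share called among all genes there was 0.286%, and on deposited TPM no clock gene was called.

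No gene was called between 2P-Im and vehicle in AppNLGF brain, by either scaling, on the lists of hormone reception and of insulin and FOXO signalling. In that contrast 0.0536% of all genes were called on deposited TPM and 0.286% after median-ratio scaling. At such shares lists this short could hold no called gene. Among 16 receptors, chaperones and enzymes of corticosteroid action the median fold change was -0.06 after median-ratio scaling, and Nr3c1, the glucocorticoid receptor, had -0.06 ± 0.07. Among 19 FOXO factors and insulin signalling genes above them the median was -0.01, with Foxo1 at -0.08 ± 0.05, Foxo3 at 0.06 ± 0.05 and the insulin receptor substrate Irs2 at 0.00 ± 0.07.

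The lists of downstream targets also had medians close to that of all genes in AppNLGF brain. Their counts of calls stand beside the same shares of all genes, 0.0536% on deposited TPM and 0.286% after median-ratio scaling. None of 21 further FOXO targets was called, with a median of 0.02 after median-ratio scaling (13 positive, 8 negative); Gadd45a, a stress gene of DNA repair, had 0.36 ± 0.11 (limma, adjusted p = 0.131). None of 20 fasting and PPAR targets was called, with a median of -0.01 and Ppargc1a, a regulator of mitochondrial genes, at -0.19 ± 0.08. Nor was any of 17 HIF, 12 p53 or 13 integrated stress response targets, with medians of 0.01, 0.01 and -0.01, against 0.00 for all genes. The largest of these, Btg2, an antiproliferative p53 target, had 0.74 ± 0.18 (adjusted p = 0.0665). In APP/TAU 2P-Im over vehicle none of these lists held a called gene by either scaling. There 0% of all genes were called on deposited TPM and 0.0114% after median-ratio scaling. The other glucocorticoid-induced genes had a median of -0.01 (22 tested), the FOXO targets 0.01 (21) and the fasting and PPAR targets 0.05 (21) after median-ratio scaling.

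**Figure D5:**
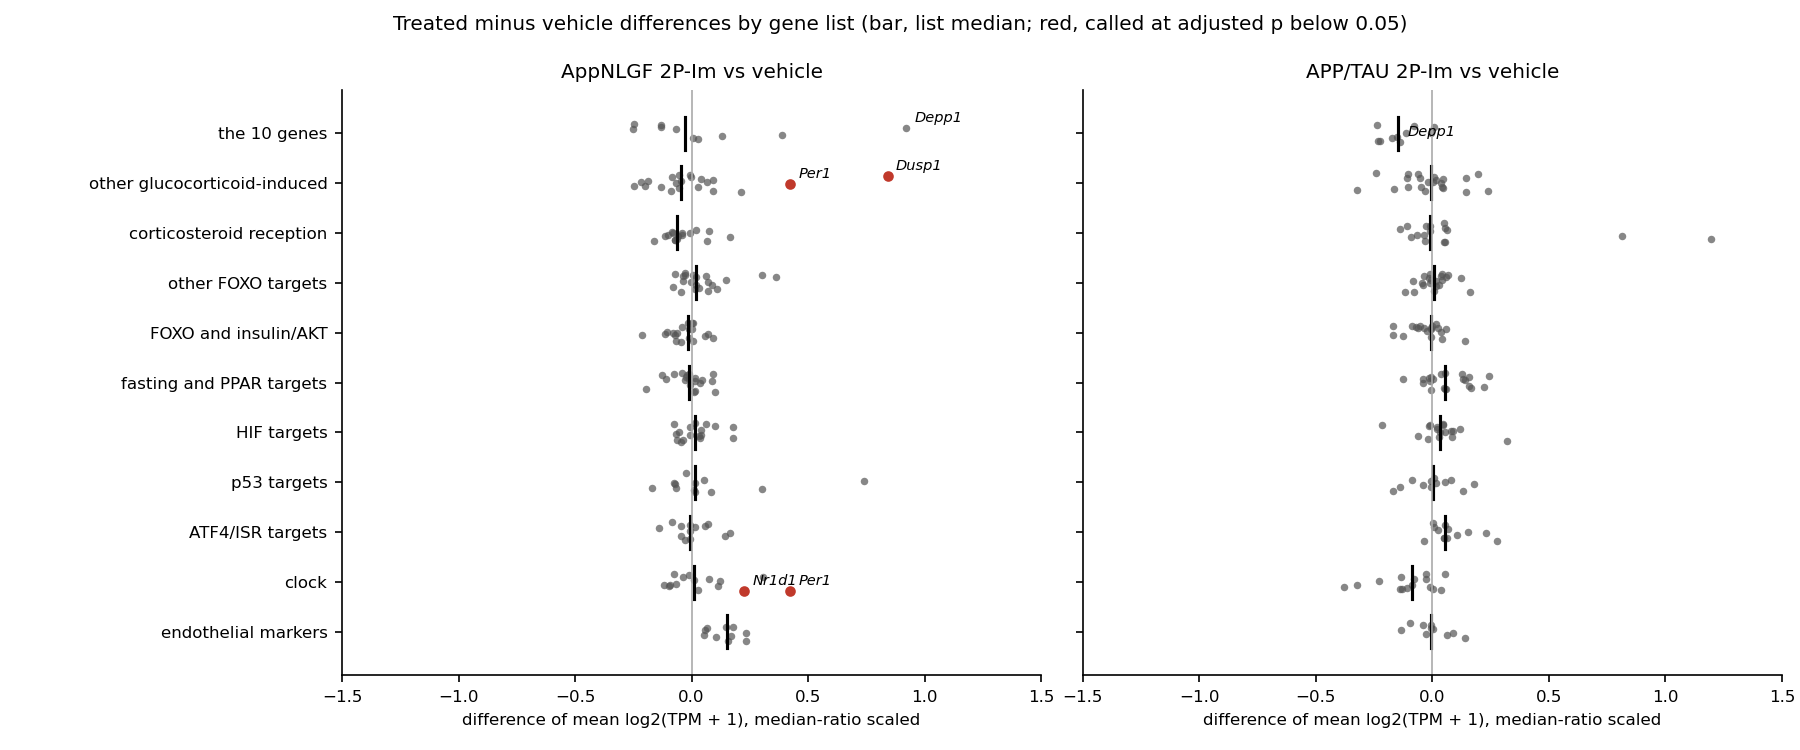
Log2 fold change, 2P-Im over vehicle, of each gene of the lists after median-ratio scaling (horizontal axes), for the AppNLGF and APP/TAU tables; points are genes, red where called at an adjusted p below 0.05, with no call drawn for the 10 members. Per1, Dusp1 and Nr1d1 are red in the AppNLGF panel and no gene is in the APP/TAU panel.

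Endothelial markers lay higher in treated than in vehicle AppNLGF brain at the median library, the direction of Depp1, though no marker passed the test. The summed TPM of 10 such genes was 53.4, 75.8 and 86.0 at the lowest, median and highest AppNLGF treated library, against 55.9, 66.9 and 70.9 with vehicle and 52.7 to 57.4 in wild type. In APP/TAU brain it was 83.5, 92.2 and 105 with 2P-Im, 93.9, 117 and 125 with vehicle and 79.2, 91.1 and 117 in wild type. In AppNLGF 2P-Im over vehicle all 10 fold changes were positive, with a median of 0.11 on deposited TPM and 0.15 after median-ratio scaling, and none was called (limma). The share called among all genes was 0.0536% and 0.286% by the 2 scalings. Cldn5, a tight junction gene, had 0.23 ± 0.07 after scaling (adjusted p = 0.130). No marker of the list was at 0, and the part of endothelial RNA in the Depp1 difference was not tested. In AppNLGF 2P-Im over vehicle 7 of 8 astrocyte, 6 of 7 microglia and 6 of 6 choroid plexus markers were negative by both scalings. Blood, mural and meningeal, oligodendrocyte and neuron markers held both signs. In APP/TAU 2P-Im over vehicle 4 endothelial markers were positive and 6 negative after median-ratio scaling. Choroid plexus markers (6 genes) varied most between libraries of a group, from 9.34 to 621 summed TPM with 2P-Im, 7.57 to 689 with vehicle and 489 to 732 in wild type of the AppNLGF table. In bulk tissue, more cells of a type and more RNA per cell cannot be told apart.

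A gene row of these tables need not hold all of a gene's RNA. The AppNLGF table lists 26 of the 54 annotated transcripts of the 10 genes in rows of their own, all of them outside the 28 transcripts that GENCODE M21 tags as basic. They made up 24.8% of the total of Sgk1 with 2P-Im, 20.7% with vehicle and 17.1% in wild type, and 42.8, 47.7 and 46.3% of that of Hif3a in the same groups. For Depp1 they added 0.042 TPM with 2P-Im, 0.057 TPM with vehicle and 0.157 TPM in wild type. With these rows included the fold changes in AppNLGF 2P-Im over vehicle were 0.86 ± 0.14 for Depp1, 0.06 for Sgk1 and -0.41 ± 0.18 for Hif3a.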

How the data were processed

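Brain RNA was extracted with Sepasol and made into libraries with the MGIEasy RNA Directional Library Prep Set, per the labels. The authors deposited TPM per gene, estimated with Salmon on GRCm38 (mm10) per the submitters' processing notes, in 1 table for each cohort; no version is given in the sources used here. Read depth cannot be recovered from TPM and is unknown. Gene rows carried 88.5 to 91.4% of TPM in AppNLGF and 84.9 to 90.8% in APP/TAU libraries. Symbols were matched to 51327 gene rows through GENCODE M21 identifiers.

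Genes with a mean of at least 1 TPM (16776 and 17592) were fitted as log2(TPM + 1) with limma 3.58.1 (trend, two-sided, Benjamini-Hochberg) in R 4.3.3, with the 3 groups of a table in 1 fit. The fit was tested on simulated data. The members and gene lists were chosen with earlier results of these data known. Named genes beside the members were up to 4 of each list with the smallest p, those with a textbook role, and the 5 most like Depp1 in each table; the textbook ones and the library, region and transcript checks were chosen after values were seen. Alternatives were median-ratio scaling, other pseudocounts and filters, fitting 2 groups alone, terms for replicate number, number range or Xist, adding transcript rows, and leaving out libraries.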

Additional observations from a re-analysis of the deposited data

Results flagged for a closer look

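Each member was looked at in the 4 groups of 4 to 10 libraries, 40 in all, for a library far from the rest of its group, a check that chance trips in about 1 of 20 groups. It found 3. Sgk1 was at 59.3 TPM in APP/TAU 2P-Im replicate 5, against 23.0 to 28.6 TPM in the other 4 treated libraries. Plin4 was at 7.56 TPM in APP/TAU vehicle replicate 1, against 1.32 to 2.96 TPM in the other 4. Pdk4 was at 5.67 TPM in APP/TAU vehicle replicate 2, against 3.53 to 4.05 TPM in the other 4.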

How the results depend on the processing

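The count of members called in AppNLGF 2P-Im over vehicle, 1 (Depp1) on deposited TPM, was 0 with a mean of at least 5 TPM, where Depp1 was not tested, and 0 with the replicate block (Depp1 fold change 0.88 ± 0.13). In AppNLGF 2P-Im over wild type it was 0 with that filter, with only the 2 groups fitted, with the block, and with the block and median-ratio scaling. Without any 1 library the first count was 1 throughout and the second 0 to 1, with 0 in the fit without wild-type replicate 1 (Depp1 fold change 1.01). Depp1 was chosen on the first of these contrasts, and the second uses the same treated libraries. Both counts are thus a description and no support for the call. Among all genes 0.0536% and 0.262% were called in the 2 contrasts on deposited TPM. In the other 4 contrasts the count of members called was 0 in every fit, over the members that passed the filter of that fit. Depp1 was tested in 14 of the 15 APP/TAU fits that leave out 1 library. No fold change of a called gene turned its sign. Replicate numbers do not pair the libraries: the correlation of same-numbered deviations was over 0.1 in 3 of 11 pairs at most, so a call lost under the block says nothing of a weaker effect.

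Counts of all genes called moved more. From 9 in AppNLGF 2P-Im over vehicle they went to 48 with median-ratio scaling (MR), 48 with a pseudocount of 0.1 and MR, 1 with the block, 14 with an Xist term (88 with MR), 22 with a number-range term (75 with MR), 53 with transcript rows and MR, and 29 without treated libraries 1 and 2 and with MR. From 47 in vehicle over wild type they went to 116 with MR, 118 with pseudocount 0.1 and MR, 31 with the filter at 5, 79 with 2 groups, 0 with the block with or without MR, 86 with Xist and MR, 201 with the range term (97 with MR) and 96 with transcript rows and MR. From 44 in 2P-Im over wild type they went to 120, 140, 25 and 13 under those first 4 settings, 0 with the block (1 with MR), 23 with Xist (98), 5155 with the range term (126), 131 with transcript rows and MR, and 75 without treated libraries 1 and 2 (147). In APP/TAU 2P-Im over vehicle 0 went to 2 with MR, with or without pseudocount 0.1, and to 3500 with the block; in 2P-Im over wild type 4 went to 1 with the block (0 with MR). The cause was not tested. Without 1 library each the counts were 5 to 15, 29 to 57 and 17 to 48 in the 3 AppNLGF contrasts (34 to 89, 74 to 129 and 75 to 129 with MR) and 0 to 2, 4 to 8 and 4 to 6 in the 3 of APP/TAU (2 to 4, 5 to 14 and 4 to 7 with MR). The Xist term could not be fitted in APP/TAU.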
